A study of Mus musculus with 8 samples.

Results

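Transcription factors that set position along the gut and intestinal identity were examined in RNA of mouse intestinal crypts, 9 in all: Pdx1, Onecut2, Gata4, Osr2, Gata6, Cdx1, Cdx2, Hnf4a and Hnf4g. The 9 genes were chosen by name for these roles and selected on the FPKM of the same 6 crypt libraries, since earlier results of these data were known, so their levels and ratios are a description. They were taken out of 16958 genes with a value, and all 9 passed the filter of a mean of at least 1 FPKM, as did 10862 genes in all. FPKM are fragments scaled to the length of the gene and to the fragments of the library. The series holds 8 samples of C57BL/6 mice, 6 of crypts and 2 of intestinal stem cells, and gene values of the stem cells were not analysed here. One crypt library (WT) came from a mouse labelled setdb1fl/fl, which carries floxed Setdb1. The other 5 (VEMD2, VEMD3, VEMD4, VEMD6 and VEMD8) came from mice labelled setdb1 iIEC-KO, in which Villin-CreERT2, a recombinase driven by an epithelial promoter of the whole intestine, serves to delete the gene. The age label of every crypt sample is 8 weeks, and 1 dose of tamoxifen at 800 mg/kg was given by gavage to the recombinase mice and to their WT littermates. The labels do not spell out VEMD or say which segment of the intestine the crypts came from. The deposited table is titled by days, and the numbers in the library names serve as labels. Each group is 1 library, so values carry no error and no difference was tested. Higher and lower refer to single libraries.

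The gut tube is patterned along its length before birth, and adult epithelium keeps part of that pattern as a code of transcription factors. PDX1 and ONECUT2 are factors of the duodenum and pancreas, GATA4 is made in the proximal and middle small intestine and falls away in the ileum, and the CDX proteins hold intestinal against gastric fate along the whole bowel. GATA6 is found along the length of the intestine, and HNF4A and HNF4G are paired nuclear receptors that open enhancers of enterocyte genes. SETDB1 is a methyltransferase that places a repressive mark on histone H3.

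Pdx1 and Cdx2 lie side by side in the ParaHox cluster on chromosome 5, and the results below turn on how differently these neighbours were measured, so the 250 bases before their start sites are shown. Hnf4a, the member with the narrowest range of levels, has 2 starts in the RefSeq table, both shown, because a value for the whole gene sums the transcripts of both. The window of its upstream start ends at 163506856, past the start of 163506811 in the record of the gene. Distances in that window are counted from the end of the window. The sequences are from RefSeq, GRCm38.p6, where 3 of the 9 members had an entry. They are written 5′ to 3′ on the strand of the gene, and capitals mark matches on either strand to the motifs named after them.

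Pdx1, plus strand, chr5:147269847-147270096: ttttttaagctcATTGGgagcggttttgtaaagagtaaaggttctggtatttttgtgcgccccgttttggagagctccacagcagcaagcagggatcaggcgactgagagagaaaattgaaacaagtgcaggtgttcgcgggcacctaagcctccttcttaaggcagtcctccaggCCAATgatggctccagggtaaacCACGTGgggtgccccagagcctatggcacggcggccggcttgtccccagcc

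Cdx2, minus strand, chr5:147307250-147307499: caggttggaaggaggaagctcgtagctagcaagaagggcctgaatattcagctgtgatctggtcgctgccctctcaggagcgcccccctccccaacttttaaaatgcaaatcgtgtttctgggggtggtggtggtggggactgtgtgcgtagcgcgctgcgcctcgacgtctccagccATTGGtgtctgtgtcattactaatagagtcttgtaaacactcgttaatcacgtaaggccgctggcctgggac

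Hnf4a, upstream start, plus strand, chr2:163506607-163506856: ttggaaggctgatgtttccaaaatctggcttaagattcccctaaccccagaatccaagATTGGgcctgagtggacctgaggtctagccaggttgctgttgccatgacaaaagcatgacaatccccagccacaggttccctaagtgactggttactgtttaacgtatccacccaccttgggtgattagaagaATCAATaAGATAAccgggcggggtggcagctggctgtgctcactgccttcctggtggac

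Hnf4a, downstream start, plus strand, chr2:163546905-163547154: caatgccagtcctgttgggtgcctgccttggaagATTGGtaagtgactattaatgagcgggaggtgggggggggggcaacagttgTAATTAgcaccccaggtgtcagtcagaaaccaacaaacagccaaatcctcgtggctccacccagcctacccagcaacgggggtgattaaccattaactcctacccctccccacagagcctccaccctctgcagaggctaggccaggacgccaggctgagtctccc

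The motifs searched on both strands were AGATAA of GATA factors, ATCAAT of ONECUT factors, TTTATNG of CDX factors, TAATTA as a homeodomain core, CAAAGTCCA of HNF4, CACGTG as an E-box and the CCAAT box. They were put together after the sequences above had been read, so nothing is read from a match. The Pdx1 window held CACGTG from 51 to 46 bases before the start and 2 CCAAT boxes, and the Cdx2 window held 1 CCAAT box. At the upstream start of Hnf4a, ATCAAT lay from 59 to 54 and AGATAA from 52 to 47 bases before the start, with 1 base between them, and a CCAAT box, read as ATTGG, from 192 to 188. The downstream start had TAATTA from 165 to 160 bases before it and 1 CCAAT box. Among 32851 windows of the same length in the table, AGATAA was held by 9.99%, ATCAAT by 6.72%, TAATTA by 4.84%, CACGTG by 6.02% and CCAAT by 33.8%. The letters of the CDX and HNF4 motifs, held by 9.81% and 0.384% of all windows, were in none of the 4. A match is a run of letters and was not tested as a binding site, and a missing match says only that these letters are not in this window.

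Some facts of the libraries bear on all values below. Setdb1 was at 9.42 FPKM (WT) and between 3.53 (VEMD6) and 7.03 (VEMD3) in the knockouts, so all 5 were below WT. The sum of FPKM lay between 481519 (VEMD6) and 585501 (WT). Ratios to WT are log2 ratios after 1 FPKM was added to both values, and a gene is called higher or lower at 2-fold. The median ratio of all tested genes was 0.09 (VEMD2), 0.12 (VEMD3), 0.03 (VEMD4), -0.23 (VEMD6) and -0.06 (VEMD8), and ratios of VEMD3 and VEMD6 are to be read against these shifts. Epithelial keratins and junction genes that check the tissue label were high in every library: 10 broad epithelial markers summed to between 6176 (VEMD2) and 7616 FPKM (VEMD4), against 3.17 to 10.4 FPKM for the 16 stroma and muscle markers with a value and 18.4 to 47.2 for 14 leukocyte markers. In bulk RNA, fewer cells of a type and less RNA per cell cannot be told apart.

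The members had another pattern in VEMD6 and VEMD8 than in the other 3 knockouts. In VEMD2, VEMD3 and VEMD4 all 9 were below WT, where 41.1%, 39.8% and 47.7% of the tested genes were, and none was above it, where 58.6%, 60% and 52.3% were. In VEMD6 and in VEMD8, 5 of 9 were below WT (65.9% and 55.3% of tested genes) and 4 above it (34.1% and 44.5%). Rescaling the libraries to the broad epithelial markers put Gata6, Cdx1 and Hnf4a slightly above WT in VEMD2, and Hnf4a in VEMD3. None of the 9 was called in VEMD2, where 2.44% of tested genes were called higher and 2.39% lower. In VEMD3 Hnf4g was called lower (4.62% of tested genes lower, 6% higher), and in VEMD4 Hnf4g and Osr2 were (5.04% lower, 7.1% higher). In VEMD6 Pdx1 and Onecut2 were called higher (5.04% of tested genes) and Osr2 and Cdx1 lower (8.15%). In VEMD8 Pdx1 and Onecut2 were again called higher (4.36%) and Osr2 alone lower (5.21%). The same 2 members were thus called higher in both VEMD6 and VEMD8 (2.73% of tested genes), and Osr2 lower in both (3.49%), while no member was called higher (2.03%) or lower (1.32%) in each of VEMD2, VEMD3 and VEMD4, a division of the libraries made after the values were seen. The median ratio of the 9 was -0.37, -0.54, -0.49, -0.10 and -0.29 from VEMD2 to VEMD8, and that of VEMD6 was 0.17 after rescaling to the median gene and 0.04 after rescaling to the broad epithelial markers. In all, 5 of 9 members were called in at least 1 library, against 24.5% of tested genes, with 2 called higher (12.2%) and 3 lower (13.4%); none was called in the same direction in all 5, against 0.571% of genes higher and 0.626% lower. None was above WT in all 5 at any size, as 17% of tested genes were. Since the members were selected on these values, nothing is read from these shares. These ratios share the 1 WT library.

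**Figure D1:**
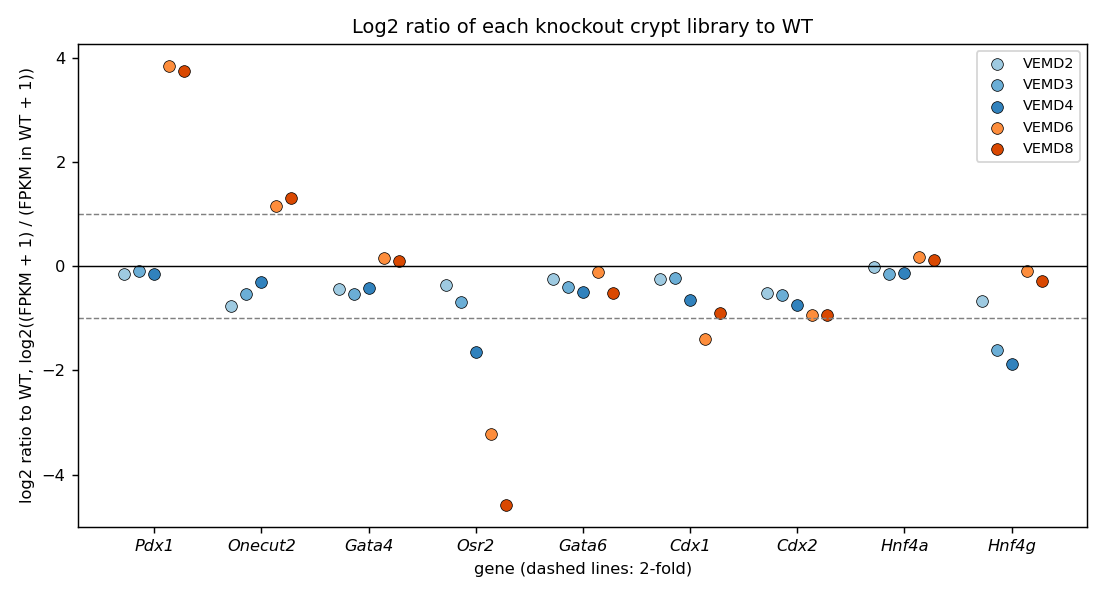
Log2 ratio to WT (after adding 1 FPKM) of the 9 factors, 1 point per knockout crypt library, with dashed lines at 2-fold. Pdx1 lies at 3.84 and 3.74 in VEMD6 and VEMD8 and near 0 in the other 3 knockouts, while Osr2 lies lowest in the same pair, at -3.21 and -4.58.

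Among the proximal factors, Pdx1 (gene 18609, chromosome 5, 147270097 to 147275848 on GRCm38) had the widest contrast. PDX1 is a homeodomain protein required for the pancreas and, in the gut, for duodenal gene expression and several enteroendocrine cells. It was at 0.32 FPKM (WT), 0.19 (VEMD2), 0.23 (VEMD3) and 0.19 (VEMD4), but at 17.9 (VEMD6) and 16.7 (VEMD8). VEMD6 and VEMD8 were the highest, each a single library, and this grouping was made after the values were seen. The share of tested genes with the same split was not counted. With 1 FPKM added, VEMD6 was 14.3 and VEMD8 13.4 times WT (log2 ratios 3.84 and 3.74), and the ratios of the other 3 lay between -0.15 and -0.10. The size depends on the pseudocount: the log2 ratios of VEMD6 and VEMD8 were 5.42 and 5.32 with 0.1 FPKM added and 2.11 and 2.03 with 5 FPKM. In rank, Pdx1 stood at the 30.3 percentile of the genes with a value in WT, at the 24.3 to 25.6 percentiles in VEMD2, VEMD3 and VEMD4, and at the 76.3 and 73.5 percentiles in VEMD6 and VEMD8. Pdx1 passed the filter on low values only through VEMD6 and VEMD8.

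Markers of the pancreas, where Pdx1 is also made, were measured beside it. Of 15 pancreas markers 6 had a value. Cela3b, a pancreatic elastase, was listed at 0 in all 6 libraries, and the zymogen gene Ctrb1 and the lipase gene Cel were listed at 0 in VEMD6 and VEMD8. The islet gene Iapp was at 0.82 FPKM (WT), 0 (VEMD6) and 0.09 (VEMD8). The 6 summed to between 9.67 (WT) and 18.4 FPKM (VEMD6). Sycn, a zymogen granule protein, was at 5.53 (WT), 15.9 (VEMD6) and 10.1 (VEMD8), and gave most of the sum in VEMD6; it also stands in the colon list.

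Onecut2, a cut-homeodomain factor of liver, pancreas and duodenum (gene 225631, chromosome 18), followed the same libraries with a smaller spread. It was at 6.03 FPKM (WT), 3.12 (VEMD2), 3.84 (VEMD3), 4.68 (VEMD4), 14.5 (VEMD6) and 16.4 (VEMD8). VEMD6 and VEMD8 were the highest, WT came next and the other 3 knockouts were the lowest, as for Pdx1. The log2 ratios were 1.14 (VEMD6) and 1.31 (VEMD8), and -0.77, -0.54 and -0.31 in VEMD2, VEMD3 and VEMD4. With 5 FPKM added in place of 1, the ratios of VEMD6 and VEMD8 were 0.82 and 0.95, short of 2-fold.

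Gata4, a zinc finger factor that keeps jejunal genes on and ileal genes off (gene 14463, chromosome 14, 63198914 to 63271712), showed the same division of libraries within a narrow range. Its levels were 52.8 FPKM (WT), 38.6 (VEMD2), 36.0 (VEMD3), 39.1 (VEMD4), 59.3 (VEMD6) and 56.8 (VEMD8). The lowest 3 were again VEMD2, VEMD3 and VEMD4, but no library was 2-fold from WT, with ratios from -0.54 to 0.16. All 3 proximal factors, Pdx1, Onecut2 and Gata4, were above WT in VEMD6 and VEMD8 and below it in the other knockouts. Hnf4a was the only other member to do so on the deposited scale.

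**Figure D2:**
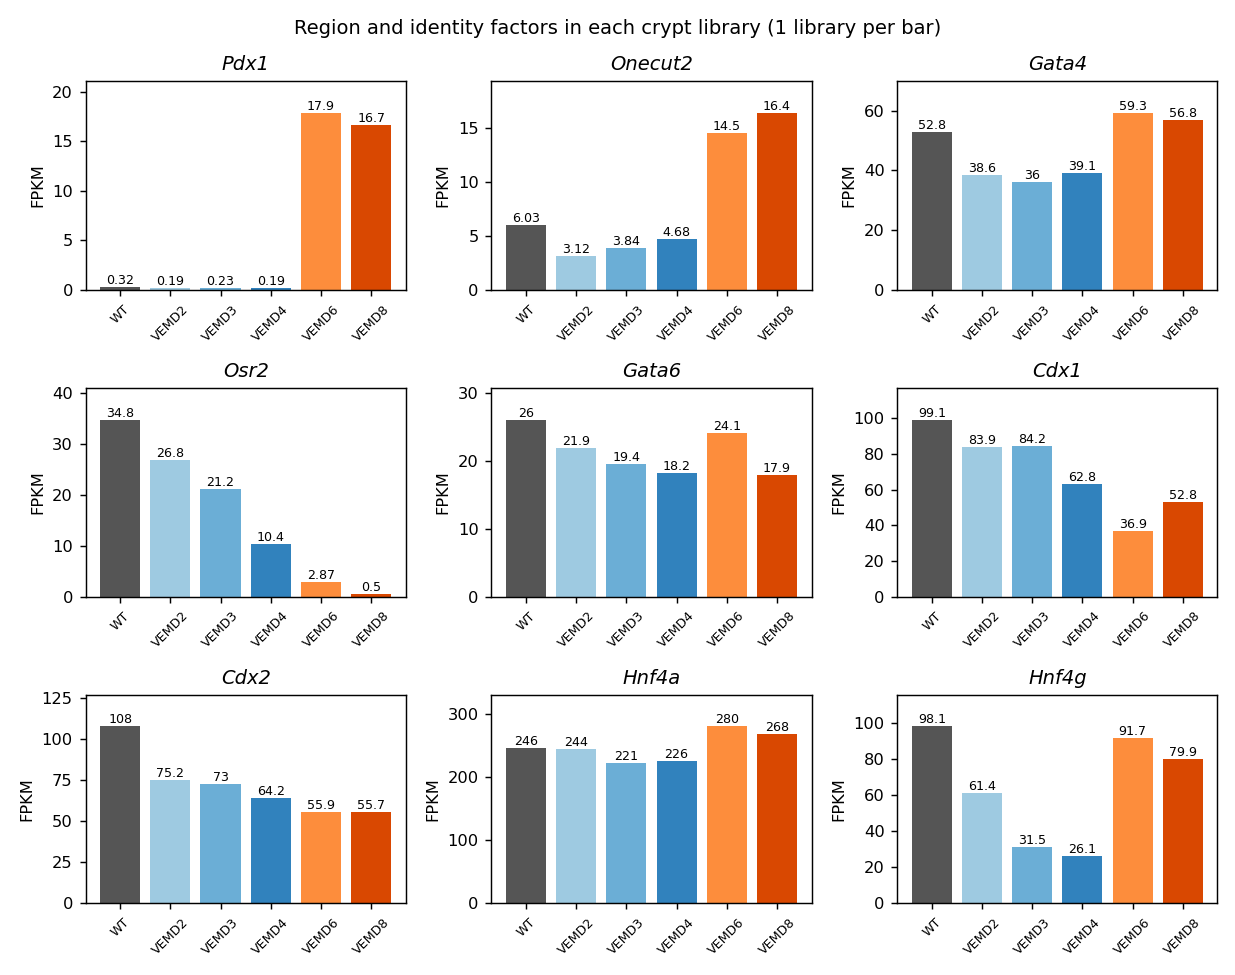
FPKM of the 9 factors in each crypt library, 1 bar per library, each panel on its own axis from 0. VEMD6 and VEMD8 are the highest 2 libraries for Pdx1, Onecut2, Gata4 and Hnf4a and the lowest 2 for Osr2, Cdx1 and Cdx2, while Hnf4g is lowest in VEMD3 and VEMD4.

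Osr2, an odd-skipped zinc finger factor known from palate and limb development and grouped here with the distal factors (gene 107587, chromosome 15, 35296098 to 35303305), went the other way. Its level was 34.8 FPKM (WT), 26.8 (VEMD2), 21.2 (VEMD3), 10.4 (VEMD4), 2.87 (VEMD6) and 0.5 (VEMD8). WT was the highest, and the level was lower in each library than in the one named before it. The log2 ratios were -0.37, -0.69, -1.65, -3.21 and -4.58, so that WT was 23.9 times VEMD8 after 1 FPKM was added. With 0.1 FPKM added the ratio of VEMD8 was -5.86, and with 5 FPKM -2.85. Over the 6 libraries its range of 4.58 on the log2 scale stood at the 99.3 percentile of tested genes, and that of Pdx1, 3.99, at the 99.0 percentile. Its relative Osr1 was at 0.03 FPKM (VEMD2) and listed at 0 elsewhere. Set against each other within a library, Onecut2 was at 0.173 times the FPKM of Osr2 in WT, 0.117 (VEMD2), 0.181 (VEMD3), 0.451 (VEMD4), 5.07 (VEMD6) and 32.7 (VEMD8). The order of these 2 factors was thus turned around in VEMD6 and VEMD8 only.

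Gata6, the relative of Gata4 that is made along the whole intestine (gene 14465, chromosome 18), varied little. It was at 26.0 FPKM (WT), 21.9 (VEMD2), 19.45 (VEMD3), 18.25 (VEMD4), 24.1 (VEMD6) and 17.85 (VEMD8). WT was the highest, and VEMD4 and VEMD8 the lowest and near each other. Its ratios lay between -0.52 and -0.11, and that of VEMD6 was 0.16 after rescaling to the median gene. Within a library, Gata4 was at 2.03 times Gata6 per length (WT), 1.76 (VEMD2), 1.85 (VEMD3), 2.14 (VEMD4), 2.46 (VEMD6) and 3.18 (VEMD8). Gata4 was thus the more abundant of the pair in all 6 libraries, by the most in VEMD8.

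Cdx1 and Cdx2, caudal-type homeodomain factors that turn on intestinal genes, were lower than WT in all 5 knockouts. Across the tested genes 20.8% were lower than WT in all 5 at any size, and of the 9 members Gata6, Osr2, Cdx1, Cdx2 and Hnf4g were, with the exceptions under rescaling given here for Gata6, Cdx1 and Hnf4g. Cdx2 (gene 12591, chromosome 5, 147300900 to 147307249) was at 108 FPKM (WT), 75.2 (VEMD2), 73.0 (VEMD3), 64.2 (VEMD4), 55.9 (VEMD6) and 55.7 (VEMD8). Its level in WT, a single library, was above that of every knockout, and VEMD6 and VEMD8 were alike. The ratios of -0.52, -0.56, -0.74, -0.94 and -0.94 all fell short of 2-fold. Rescaled to the broad epithelial markers, those of VEMD2 and VEMD3 were -0.22 and -0.39. Cdx1 (gene 12590, chromosome 18), a Wnt target strongest in the crypt, was at 99.1 FPKM (WT), 83.9 (VEMD2), 84.2 (VEMD3), 62.8 (VEMD4), 36.9 (VEMD6) and 52.8 (VEMD8). It was lowest in VEMD6, the 1 library past 2-fold, at -1.40, or -1.14 when rescaled to the median gene. Rescaled to the broad epithelial markers, its ratio in VEMD2 was 0.06 in place of -0.24. Cdx2 was at 0.867 to 1.09 times Cdx1 in WT, VEMD2, VEMD3, VEMD4 and VEMD8 and at 1.51 times in VEMD6.

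Pdx1 and Cdx2 are 25052 bases apart on chromosome 5, and in VEMD6 and VEMD8 the first was higher than WT and the second lower. Pdx1 was at 0.0030 times the FPKM of Cdx2 in WT, at 0.320 times in VEMD6 and at 0.300 times in VEMD8. Of 8 coding genes within 250 kb of the pair, 5 were tested, and the other 3 were the ubiquitin ligase gene Lnx2, the polymerase subunit gene Polr1d and the deadenylase subunit gene Pan3. None of these 3 was 2-fold from WT in any library, with ratios from -0.58 to 0.24. Polr1d was at 164 FPKM (WT), 110 (VEMD6) and 143 (VEMD8). The high values of VEMD6 and VEMD8 were thus seen for Pdx1 but not for its measured neighbours.

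The HNF4 receptors differed from each other. Hnf4a (gene 15378, chromosome 2, 163506811 to 163572907), the factor whose 2 starts are printed above, was at 246 FPKM (WT), 244 (VEMD2), 221 (VEMD3), 226 (VEMD4), 280 (VEMD6) and 268 (VEMD8). It was the most abundant of the 9 in every library, and its range of 0.34 on the log2 scale stood at the 6.26 percentile of tested genes. VEMD6 and VEMD8 were the highest, as for Gata4, and VEMD3 and VEMD4 the lowest, with all ratios between -0.15 and 0.18. Rescaling to the broad epithelial markers gave 0.29 (VEMD2) and 0.02 (VEMD3), in place of -0.01 and -0.15, so the direction in these libraries depends on the scaling.

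Hnf4g (gene 30942, chromosome 3, 3508030 to 3659800), which overlaps Hnf4a in function in the villus epithelium, was at 98.1 FPKM (WT), 61.4 (VEMD2), 31.5 (VEMD3), 26.1 (VEMD4), 91.7 (VEMD6) and 79.9 (VEMD8). The knockouts fell into a low set of VEMD3 and VEMD4, VEMD2 between, and VEMD6 and VEMD8 near WT. The ratios were -0.67, -1.61, -1.87, -0.10 and -0.29, with that of VEMD6 at 0.17 after rescaling to the median gene and 0.04 after rescaling to the broad epithelial markers. Hnf4a was at 2.51 times Hnf4g per length (WT), 3.97 (VEMD2), 7.03 (VEMD3), 8.64 (VEMD4), 3.05 (VEMD6) and 3.36 (VEMD8). The ratio was highest where Hnf4g was lowest, and Hnf4a lay between 221 and 280 FPKM throughout.

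**Figure D3:**
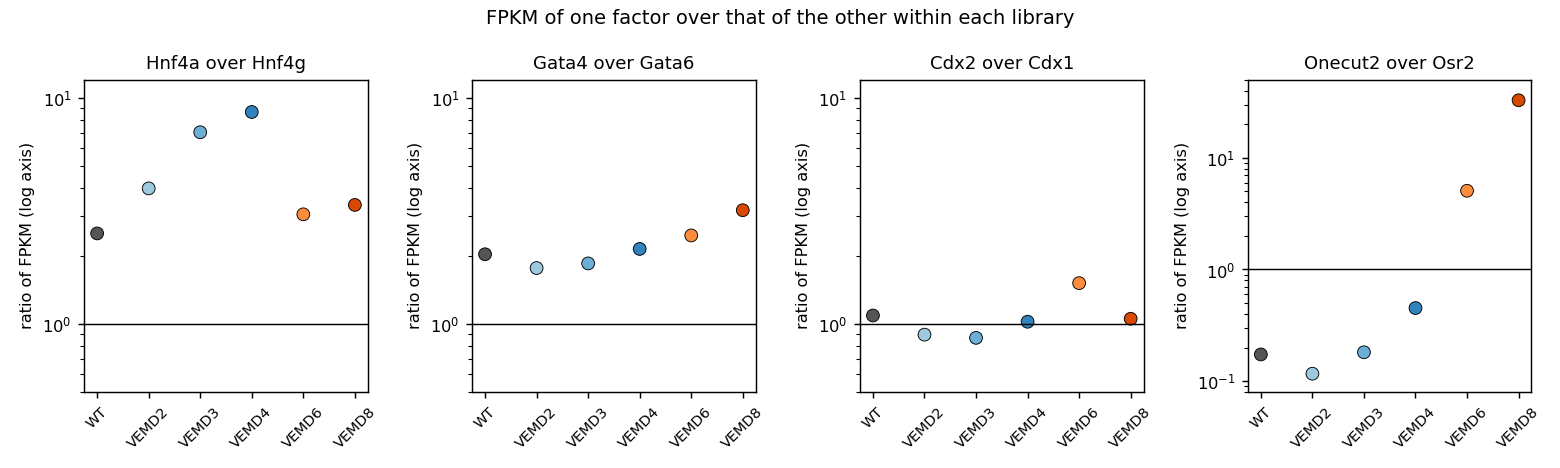
Ratio of the FPKM of one factor to that of the other in each crypt library, on log axes with a line at 1, the last panel over a wider range. Hnf4a over Hnf4g is highest in VEMD3 and VEMD4 (7.03 and 8.64), and Onecut2 over Osr2 crosses 1 in VEMD6 and VEMD8 only (5.07 and 32.7).

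Relatives and partners of the members were measured beside them. Of 14 genes on that list 9 had a value and 4 were tested, among them Gata5, Zfpm1 and Meis2. Meis2, a TALE homeodomain factor, was at 0.21 FPKM (WT), 0.28, 0.18 and 0.55 in VEMD2, VEMD3 and VEMD4, 5.27 (VEMD6) and 3.85 (VEMD8). Its high values lay in VEMD6 and VEMD8, and it was the 1 gene of the 4 that was called, in these libraries. Meis2 passed the filter on low values only through VEMD6 and VEMD8, as Pdx1 did, so nothing is read from its call. Gata5, the third GATA factor of the gut, lay between 15.4 (WT) and 22.0 FPKM (VEMD4). Zfpm1, a cofactor of GATA proteins, lay between 18.7 (WT) and 34.0 (VEMD6). Onecut3 was at 0.38 FPKM (WT) and 0.05 (VEMD8), under the filter.

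Other transcription factors of gut epithelium, 24 tested of 25, had medians from -0.20 to -0.12, whose sign turned in VEMD6 after rescaling to the median gene and in VEMD2 and VEMD8 after rescaling to the broad epithelial markers. From VEMD2 to VEMD8, 0, 2, 3, 2 and 0 were called higher and 1, 5, 4, 6 and 2 lower. The shares of all tested genes called higher were 2.44%, 6%, 7.1%, 5.04% and 4.36%. Those called lower were 2.39%, 4.62%, 5.04%, 8.15% and 5.21%. Foxa1, a pioneer factor of secretory cells, was at 6.41 (WT), 12.95 (VEMD2), 15.5 (VEMD3), 19.1 (VEMD4), 6.57 (VEMD6) and 11.3 (VEMD8). The vitamin D receptor gene Vdr was at 88.25 (WT), 31.2 (VEMD3), 18.7 (VEMD4), 73.2 (VEMD6) and 45.2 (VEMD8), and Maf, a factor of mature enterocytes, at 38.6, 10.0, 17.8, 65.6 and 26.7 in the same libraries. Both were low in VEMD3 and VEMD4, where Hnf4g was lowest. Hes1, a Notch effector, was at 29.7 (WT), 13.2 (VEMD6) and 14.3 (VEMD8).

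Genes of known position along the small intestine were read beside the factors. Of 18 proximal genes 17 were tested, and their median ratio was -1.08 (VEMD2), -1.13 (VEMD3), -0.45 (VEMD4), 0.43 (VEMD6) and 0.17 (VEMD8). Counts of genes called higher were 0, 0, 0, 8 and 2, and of genes called lower 9, 11, 6, 3 and 7. The shares of all tested genes called higher were 2.44%, 6%, 7.1%, 5.04% and 4.36%. Those called lower were 2.39%, 4.62%, 5.04%, 8.15% and 5.21%. At any size 11 of 17 were above WT in VEMD6 (34.1% of tested genes) and 9 of 17 in VEMD8 (44.5%). The lists were chosen with earlier results known, so nothing is read from their counts. Slc40a1, the iron exporter ferroportin of the duodenum, was at 1.77 FPKM (WT), 0.16 (VEMD2), 0.28 (VEMD3), 1.03 (VEMD4), 46.7 (VEMD6) and 20.9 (VEMD8), with the same high pair as Pdx1. It was 1 of the 2 list genes called higher in VEMD8. Slc40a1 passed the filter on low values only through VEMD6 and VEMD8. Cybrd1, also called higher in VEMD6, was at 0.40 (WT) and 3.18 (VEMD6) and passed only through VEMD6. Gkn3, above WT in VEMD8 but short of 2-fold, was at 1.27 (WT) and 2.68 (VEMD8) and passed only through VEMD8. The counts above include these genes. Slc46a1, the proximal folate carrier, was at 22.0 (WT), 67.2 (VEMD6) and 24.9 (VEMD8). The list did not move as one. The lactase gene Lct was at 65.1 (WT), 16.7 (VEMD6) and 0.39 (VEMD8), and Gip, an incretin gene of endocrine K cells, had 121, 29.2 and 5.84. Apoc3, an apolipoprotein, had ratios of -0.53 in VEMD6 and -2.42 in VEMD8. Those of Adh6a, an alcohol dehydrogenase, were 0.07 and -1.46, and those of Khk, the fructose kinase, 0.08 and -0.99. Cck, a hormone gene of proximal endocrine cells, was at 33.9 (WT), 10.9 (VEMD6) and 3.02 (VEMD8).

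Of 18 distal genes 17 had a value and 14 were tested, and their median ratio was 0.10 for VEMD2, -0.26 for VEMD3, -0.03 for VEMD4, -0.57 for VEMD6 and -1.06 for VEMD8. That of VEMD4 was 0.04 after rescaling to the broad epithelial markers and 0.14 without the filter. There were 4, 3, 3, 0 and 0 called higher and 2, 4, 4, 6 and 8 called lower. Of all tested genes 2.44% were called higher in VEMD2, and 8.15% (VEMD6) and 5.21% (VEMD8) lower. Plb1, among those called higher in VEMD2, was at 0.88 FPKM (WT) and 3.82 (VEMD2) and passed the filter only through VEMD2. At any size 6 of 14 were above WT in VEMD6 (34.1% of tested genes). In VEMD8 1 of 14, the bile acid importer gene Slc10a2, was (44.5%). Naaladl1, a peptidase of the ileal brush border, was at 84.1 FPKM (WT), 109 (VEMD2), 49.9 (VEMD3), 30.2 (VEMD4), 15.2 (VEMD6) and 2.87 (VEMD8). Fabp6, the ileal bile acid binding protein, was at 2.27 (WT), 51.7 (VEMD2), 8.19 (VEMD3) and 5.54 (VEMD4), listed at 0 (VEMD6) and at 0.38 (VEMD8). The hormone genes Nts and Pyy of distal endocrine cells were at 15.8 and 4.05 (WT), between 14.6 and 40.5 and between 5.45 and 5.66 in VEMD2, VEMD3 and VEMD4, and at or under 1.01 and 0.13 in VEMD6 and VEMD8. Of 11 tested enteroendocrine markers 9 were called lower in VEMD6 (8.15% of tested genes) and 10 in VEMD8 (5.21%). Gip and Cck of the proximal list were among them in both. Other distal genes were above WT in VEMD6: the bile acid exporter genes Slc51a and Slc51b were at 74.5 and 104 (WT) and at 95.5 and 173 (VEMD6), the lectin gene Clec2h at 303 (WT) and 388 (VEMD6), and the dipeptidase gene Dpep1 at 70.4 (WT) and 124 (VEMD6). Slc10a2 was at 0.65 (WT), between 3.1 and 5.27 in VEMD2, VEMD3 and VEMD4, 1.12 (VEMD6) and 1.22 (VEMD8). In VEMD6 genes of both lists thus lay on either side of WT. In VEMD8 13 of 14 distal genes lay below it, as did 55.3% of tested genes.

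Of 14 colon genes 9 had a value and 5 were tested, with medians of 0.04, 0.51, 0.44, 1.37 and 0.76 from VEMD2 to VEMD8. Of the 5, 3 were called higher in VEMD6 (5.04% of tested genes) and 2 in VEMD8 (4.36%). In each knockout 1 was called lower, where 2.39% (VEMD2) to 8.15% (VEMD6) of tested genes were. Without the filter the medians of VEMD6 and VEMD8 were 0.15 and 0.20, and that of VEMD2 was -0.04 after rescaling to the median gene. Slc37a2, a sugar phosphate carrier, was at 0.54 (WT), between 0.14 and 0.17 in VEMD2, VEMD3 and VEMD4, 28.95 (VEMD6) and 6.72 (VEMD8). It passed the filter on low values only through VEMD6 and VEMD8. Ckb, the brain-type creatine kinase, was at 192 (WT), 741 (VEMD6) and 487 (VEMD8). Mettl7b was lower, at 6.92 (WT), 2.57 (VEMD6) and 1.15 (VEMD8). Some colon genes were thus high in the same libraries as Pdx1, as some proximal genes were. Because the labels name no segment and each group is 1 library, the segment taken, the age of the deletion and the mouse cannot be told apart.

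**Figure D4:**
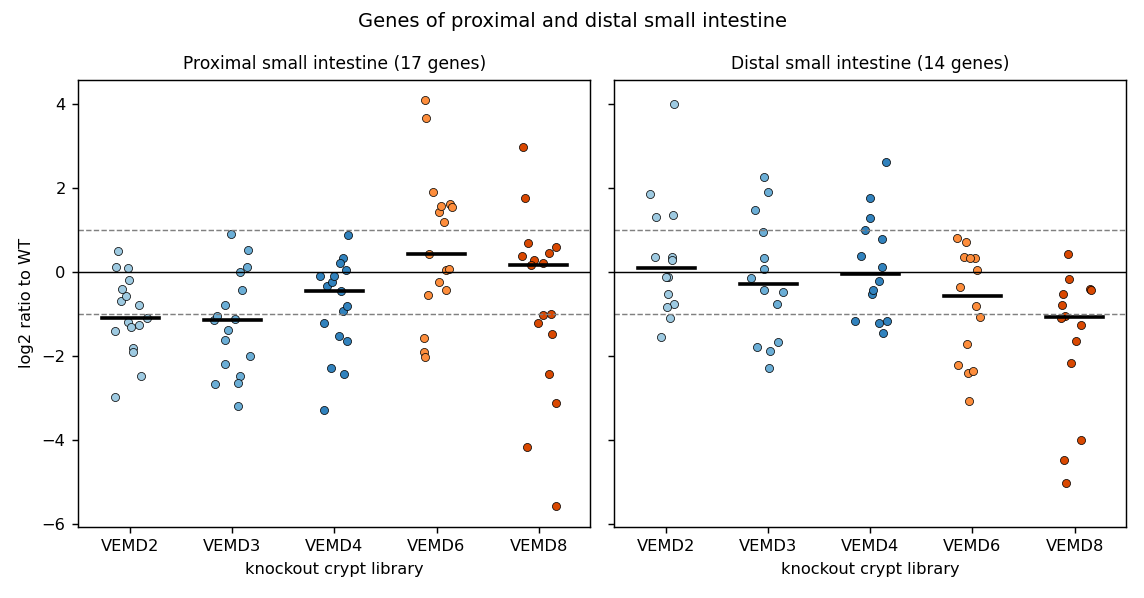
Log2 ratio to WT of the tested genes of the proximal (17) and distal (14) small intestine lists, 1 point per gene and knockout crypt library, with bars at the medians and dashed lines at 2-fold. The proximal median lies at -1.08 and -1.13 in VEMD2 and VEMD3 and above 0 in VEMD6 and VEMD8, where the distal median is -0.57 and -1.06.

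Genes tied to the identity factors were counted as well. The 14 genes of general intestinal epithelium, many of them dependent on CDX factors, had median ratios of -0.44, -0.59, -0.22, 0.76 and 0.12 in the same order of libraries. Of these genes 0, 1, 1, 4 and 2 were called higher and 2, 5, 2, 0 and 1 lower. The shares of all tested genes called higher were 2.44%, 6%, 7.1%, 5.04% and 4.36%. Those called lower were 2.39%, 4.62%, 5.04%, 8.15% and 5.21%. Cdh17, an intestinal cadherin that CDX2 activates, was at 446 FPKM (WT), 447 (VEMD2), 430 (VEMD3), 543 (VEMD4), 825 (VEMD6) and 623 (VEMD8). Of the 14, 11 were above WT and 3 below it in VEMD6 (34.1% and 65.9% of tested genes). In VEMD8 9 were above and 5 below (44.5% and 55.3%). Phgr1 was below WT in every knockout, at -0.43 in VEMD6 and -1.07 in VEMD8, where it was called lower. A link to the levels of Cdx1 and Cdx2 was not tested. Tmprss15, the duodenal protease enteropeptidase, was at 5.42 (WT), 0.10 (VEMD2), 0.20 (VEMD3), 0.78 (VEMD4), 29.7 (VEMD6) and 15.0 (VEMD8). Sis, the sucrase gene, was at 170 (WT), 217 (VEMD2), 47.7 (VEMD3), 70.8 (VEMD4), 164 (VEMD6) and 185 (VEMD8). Fut2, a fucosyltransferase, was at 1.08 (WT), 2.09 (VEMD2), 7.32 (VEMD3), 22.6 (VEMD4), 6.45 (VEMD6) and 27.9 (VEMD8). Stomach genes, which CDX2 keeps silent, had 13 of 14 with a value and 2 tested, Ctse and Anxa10. Anxa10, an annexin of gastric epithelium, was at 0.03 (WT), 0.07 (VEMD2), 1.34 (VEMD3), 19.4 (VEMD4), 7.02 (VEMD6) and 39.55 (VEMD8). Ctse was at 0.14 (WT), 0.03 (VEMD2), 0.06 (VEMD3), 2.66 (VEMD4), 2.36 (VEMD6) and 1.4 (VEMD8). Both passed the filter on low values only through VEMD4, VEMD6 and VEMD8, where they were highest, so nothing is read from this. The mucin gene Muc5ac and the gastrokine gene Gkn1, picked once their values had been seen, stayed at or under 1.16 in all libraries.

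The 15 lipid genes associated with HNF4 had medians of -0.75, -1.45, -0.36, 0.71 and 0.01, with 0, 0, 0, 7 and 1 called higher and 6, 10, 4, 0 and 3 lower. Fabp2, a fatty acid binding protein, was at 1586 FPKM (WT), 770 (VEMD2), 394 (VEMD3), 721 (VEMD4), 2595 (VEMD6) and 952 (VEMD8). Pck1, a gluconeogenic enzyme, was at 25.0 (WT), 1.86 (VEMD3), 1.49 (VEMD4), 13.1 (VEMD6) and 2.88 (VEMD8). The 12 brush border genes had medians of -0.53, -0.75, 0.04, 1.06 and 0.17. Of them 6 were called higher in VEMD6 and 1 in VEMD4, and 3 were called lower in VEMD3 and 1 in VEMD4. For both HNF4 lists, the shares of all tested genes called higher were 2.44%, 6%, 7.1%, 5.04% and 4.36% from VEMD2 to VEMD8. Those called lower were 2.39%, 4.62%, 5.04%, 8.15% and 5.21%. Ezr, the ezrin gene of microvilli, was at 204 (WT), 268 (VEMD3), 362 (VEMD4) and 511 (VEMD6). Both HNF4 lists had their lowest median in VEMD3 and their highest in VEMD6, whereas Hnf4g was lowest in VEMD4 and Hnf4a ranged little.

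**Figure D5:**
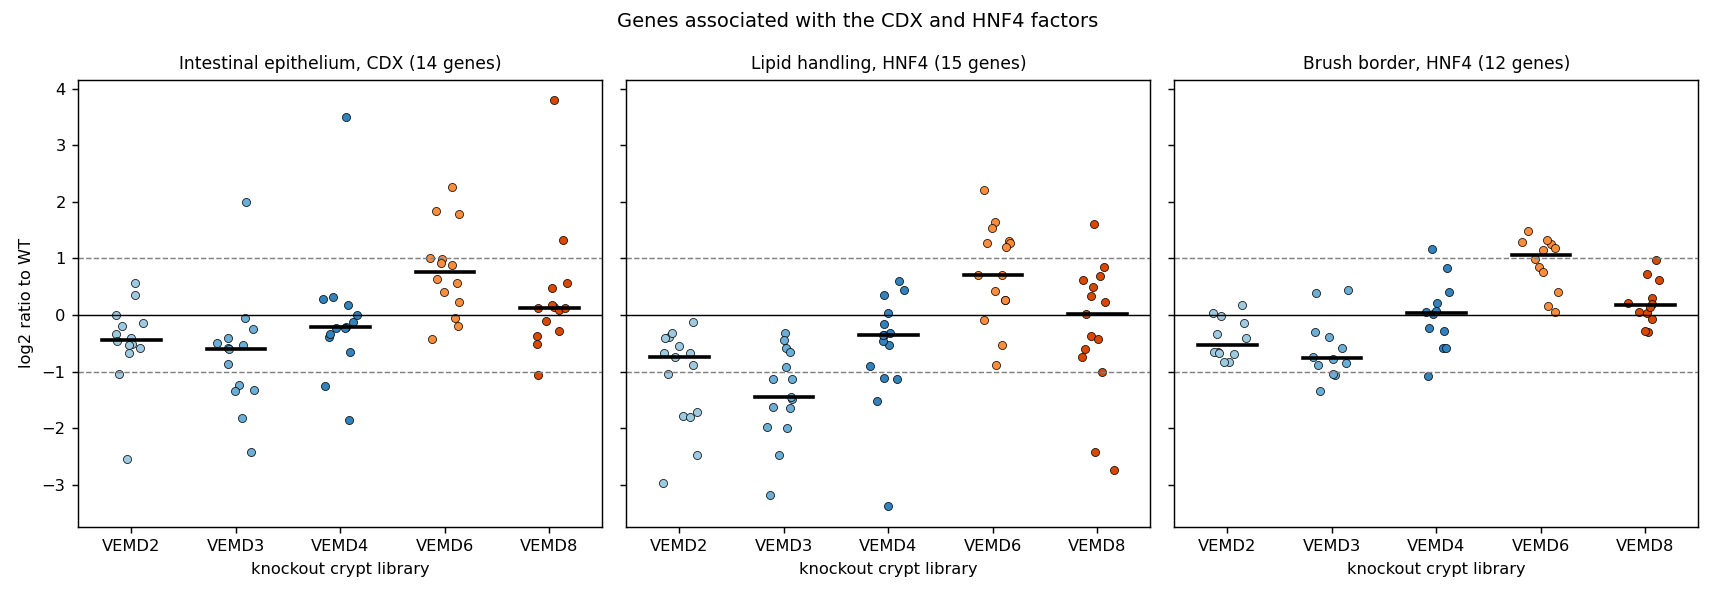
Log2 ratio to WT of genes of general intestinal epithelium (14), of HNF4-associated lipid genes (15) and of HNF4-associated brush border genes (12), 1 point per gene and knockout crypt library, with bars at the medians and dashed lines at 2-fold. All 3 medians are lowest in VEMD3 (-0.59, -1.45 and -0.75) and highest in VEMD6 (0.76, 0.71 and 1.06). The epithelium and brush border lists share a gene, so they are not independent.

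Markers of the cell types in a crypt preparation also differed between the libraries. The 20 enterocyte markers summed to 13966 FPKM (WT), 6066 (VEMD2), 4350 (VEMD3), 9927 (VEMD4), 28269 (VEMD6) and 13329 (VEMD8), with none at 0. Their sum was lowest in VEMD3 and highest in VEMD6. This list shares genes with those above, among them Sis with the epithelium list, Apoa4 and Fabp2 with the lipid list and Lct with the proximal list. The profiles of these lists are therefore not independent. The 12 Paneth cell markers summed to 28915 (WT), 40619 (VEMD2), 21349 (VEMD3), 8786 (VEMD4), 2664 (VEMD6) and 3830 (VEMD8). Defensin genes weigh heavily in this sum, with Defa17 at 12801 and Defa24 at 6600 FPKM in WT. Their values are uncertain because such genes have near-identical copies. The 14 enteroendocrine markers summed to 352, 433, 682, 300.5, 85.6 and 28.9. Both sums were lowest in VEMD6 and VEMD8, as was Osr2. Goblet markers summed to 1024 and 1644 there, against 2664 to 5552 in the other 4 libraries. Of 10 stem and cycling cell markers, 5 were called lower in VEMD6 (8.15% of tested genes) and 1 in VEMD8 (5.21%). The part of these cell types in the levels of the 9 factors was not tested.

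The genes whose ratios were nearest to those of each member were sought among 8306 others with a mean of at least 5 FPKM, by the root mean square difference of the 5 log2 ratios. Nearest to Pdx1 were the sulfate donor synthase gene Papss2 at 0.41, Slc37a2 of the colon list at 0.70 and Slc40a1 at 0.77. Slc37a2 and Slc40a1, like Pdx1, reached a mean of 5 FPKM only through VEMD6 and VEMD8. A gene low elsewhere could enter the search only if high in some library, so nothing is read from their likeness to Pdx1. Papss2 was at 38.2 FPKM (WT), 30.6 (VEMD2), 32.4 (VEMD3), 52.2 (VEMD4), 361 (VEMD6) and 601 (VEMD8). Nearest to Osr2 were Naaladl1 at 0.50, the Paneth defensin gene Defa22 at 0.65 and the chemokine gene Ccl6 at 0.68. Defa22 is 1 of many near-identical copies, so its value is uncertain. Onecut2 was nearest to Dynlt1b at 0.15, Tmem263 at 0.19 and Mia2 at 0.21, and Hnf4g to Gm11437 at 0.15, the deubiquitinase gene Usp2 at 0.17 and the scaffold gene Pdzd3 at 0.22. Usp2 was at 11.8 (WT), 2.49 (VEMD3), 2.25 (VEMD4) and 13.2 (VEMD6), low in VEMD3 and VEMD4 as Hnf4g was. In VEMD6 Usp2 was slightly above WT, and the side of WT on which Hnf4g lay there depends on the scaling.

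For the members with small ratios the nearest genes were closer still. Cdx1 was nearest to Metap1d, Rnaseh2b and Hmgb2, a chromatin protein of dividing cells, at 0.07 to 0.09. Hmgb2 was at 186 FPKM (WT), 64.9 (VEMD6) and 97.3 (VEMD8). Cdx2 was nearest to Dpm3, Romo1 and Prr5 at 0.04 to 0.07, Gata4 to Rab9, Prkcz and Ppp6r2 at 0.07, Gata6 to Tmlhe, Mcur1 and Map2k2 at 0.06 to 0.08, and Hnf4a to Wtap, Pptc7 and Atp8b1 at 0.03 to 0.06. No member had another member among its 3 nearest genes. With 5 ratios per gene and 8306 genes searched, near neighbours of this kind are a description of these libraries alone.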

How the data were processed

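RNA of mouse crypts was sequenced on a BGI-500 instrument per the labels' protocols. The authors deposited gene values as FPKM, a unit named per the file headers, to 2 decimals. The submitters' processing notes name HISAT2, featureCounts and edgeR and the builds GRCm38 and mm10, without versions or roles. Of 20718 lines, 3760 held no value. Genes were matched by Entrez identifier to RefSeq (GRCm38.p6), and 16916 of 16958 had a symbol. The filter kept genes whose mean over the 6 libraries reached 1 FPKM. Log2 ratios were taken after a pseudocount of 1 FPKM and called at 2-fold, with Python 3.11.15 and pandas 2.3.3, and the rule was tested on simulated data. The deposited values are not counts, and low values showed no steps from which depth could be read (the fullest bin of ratios held 3.58% to 4.72% of low genes), so the depth is unknown and no counting interval was given.

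The members and the 21 gene lists were chosen with earlier results of these data known. Genes named are the 9 members, Setdb1, relatives and other gut factors, up to 4 tested genes per list by the size of their mean ratio, and the 3 genes nearest to each member. Slc46a1, Cybrd1, Gkn3, Plb1, Fabp6, Nts, Pyy, Slc51a, Slc51b, Clec2h, Dpep1, Cdh17, Cela3b, Ctrb1, Cel, Muc5ac and Gkn1 stand outside this choice. So do Hox genes other than Hoxa3, the neighbours of Pdx1 and the ratios of Onecut2 to Osr2 and Pdx1 to Cdx2. All of these were picked once their values had been seen. Alternatives were pseudocounts of 0.1 and 5 FPKM, no filter, rescaling to the median gene, leaving out libraries, a pseudocount on ratios between factors and Pearson correlation for likeness. Rescaling to 10 broad epithelial markers and the split into VEMD6 with VEMD8 and the rest were added after seeing the data. The table of repeats, with 2 further columns of sample values, was not used here. Some genes of the lists are not reported here.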

Additional observations from a re-analysis of the deposited data

How the results depend on the processing

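No paired analysis was possible because there is 1 library in every group. Of 45 ratios of members to WT, all kept their side of the 2-fold threshold with a pseudocount of 0.1 FPKM, without the filter and under both rescalings. With a pseudocount of 5 FPKM 43 of 45 did; Onecut2 fell short, so that 1 member in place of 2 was called higher in VEMD6 and likewise 1 in VEMD8. Over VEMD6 and VEMD8 alone 2 members, Pdx1 and Onecut2, were called higher in each library, against 2.73% of tested genes, and 1, Osr2, lower, against 3.49%. The count over all 5 libraries was 0 in each direction, and it stayed 0 without any single library. The ratio of Gata4 to Gata6 in WT was 1.02 on the log2 scale and 0.99 with a pseudocount of 1 FPKM on both. By Pearson correlation over the 6 libraries, 2 of the 3 genes nearest to Gata4 and 2 of those nearest to Onecut2 were again among the first 3, and none for the other 7 members. With a pseudocount of 5 FPKM the median of the proximal list in VEMD2 was -0.68 in place of -1.08, and that of the distal list in VEMD8 -0.49 in place of -1.06. Unknown depth limits low values most, such as Pdx1 under 1 FPKM.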

Other observations

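Genes of the Hoxa cluster, which mark position along the body axis, were read beside the region factors. Of 39 Hox genes listed 27 had a value and 1, Hoxa3, passed the filter, at 0.86 FPKM in WT, 2.59 in VEMD4 and 0.71 in VEMD6. The posterior genes Hoxa9 and Hoxa10 were at 0.02 and 0 in WT, 0 in VEMD3 and VEMD2, 0.48 and 0.53 in VEMD6, and 3.07 and 3.85 in VEMD8. Hoxa7 was listed at 0 in WT and the 3 knockouts VEMD2, VEMD3 and VEMD4, at 0.27 in VEMD6 and at 0.97 in VEMD8, while Hoxa5 was at 0.03 (WT), 0.16 (VEMD2), 0.22 (VEMD3), 0.39 (VEMD4), 0.13 (VEMD6) and 0.55 (VEMD8), with VEMD6 the lowest knockout. No gene of the other Hox clusters with a value was above 0.45 FPKM in any library. These genes were chosen after their values were seen.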
